A study of Mus musculus with 8 samples.

Results

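The genes described here are 10 genes of acrosome formation and Golgi vesicle traffic, Gopc, Pick1, Agfg1, Dpy19l2, Spata16, Csnk2a2, Vps54, Gba2, Tmf1 and Golga3, compared between Iqch mutant and wild-type testes. They were listed by name, from what mouse mutants of each gene are known for, with earlier results of these data already known. All 10 were found among the 17127 genes of the table, and all 10 passed the minimum on low values, as did 17126 genes in all. Bulk RNA-seq was made from whole testes of adult males aged 4 months, 1 library per mouse. The mutants were homozygous Iqch-/- mice. Their germline deletion, in a late exon of Iqch, was made with CRISPR-Cas9 in B6CBAF1 (C57BL/6xCBA) zygotes and was present in every cell of the animal. The study kept a pair of such lines, Iqch mu5 and mu7, and the labels do not say which line a library came from. A figure of the paper names its mutant RNA-seq coverage of Iqch as mu7. The controls were wild-type mice. The labels list 8 samples, and 7 were analysed here, wild types 1 to 4 and mutants 1, 2 and 4.

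The acrosome is a secretory vesicle that caps the nucleus of the spermatid and carries the enzymes and receptors used to reach the egg. In round spermatids, vesicles bud from the Golgi, travel to the nucleus, fuse with each other and spread over an anchoring plate on the nuclear envelope. Where budding, transport, fusion or anchoring fails, the acrosome is missing or fragmented and the sperm head is often round, a condition known as globozoospermia. The libraries hold RNA levels and no measure of the acrosome or of sperm shape.

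The promoters of 3 members are shown first, and they were chosen after their values were seen. They were the members called both on the deposited values and after the rescaling described below. Agfg1, Csnk2a2, Gba2, Tmf1 and Golga3 were called after the rescaling only. Each runs from 250 bases before to 50 bases after the annotated start, 5′ to 3′ on the gene's strand, from RefSeq on GRCm38.p6, an older build than the GRCm39 of the expression files. Dpy19l2 lies at chr9:24696244-24696543 on the minus strand, and its capitals mark TGACG. Spata16 lies at chr3:26637381-26637680 on the plus strand, and its capitals mark the GC box GGGCGG. Vps54 lies at chr11:21238782-21239081 on the plus strand, and its capitals mark 3 GC boxes, read as GGGCGG or, on the other strand, CCGCCC.
Dpy19l2: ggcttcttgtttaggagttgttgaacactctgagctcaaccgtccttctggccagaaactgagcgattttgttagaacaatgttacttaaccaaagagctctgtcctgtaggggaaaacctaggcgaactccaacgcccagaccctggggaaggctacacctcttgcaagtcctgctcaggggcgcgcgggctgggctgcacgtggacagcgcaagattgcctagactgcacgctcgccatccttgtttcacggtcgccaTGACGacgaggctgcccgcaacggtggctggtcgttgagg
Spata16: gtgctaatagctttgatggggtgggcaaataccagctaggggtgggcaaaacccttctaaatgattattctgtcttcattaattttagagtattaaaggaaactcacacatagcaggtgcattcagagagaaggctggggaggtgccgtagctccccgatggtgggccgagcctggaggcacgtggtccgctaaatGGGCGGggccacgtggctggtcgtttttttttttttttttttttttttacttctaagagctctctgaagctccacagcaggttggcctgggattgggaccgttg
Vps54: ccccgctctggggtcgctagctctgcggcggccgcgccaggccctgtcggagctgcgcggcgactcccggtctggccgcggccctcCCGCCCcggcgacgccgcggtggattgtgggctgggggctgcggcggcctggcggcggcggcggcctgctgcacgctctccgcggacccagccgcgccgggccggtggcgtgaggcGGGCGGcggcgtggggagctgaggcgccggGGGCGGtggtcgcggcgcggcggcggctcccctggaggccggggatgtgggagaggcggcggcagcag
The windows differed widely in base composition. GC content was 49.0% for Spata16, 56.7% for Dpy19l2 and 82.7% for Vps54, against a median of 52.7% over all RefSeq windows. The CpG count was 9, 18 and 49 in the same order, against a median of 7. The letters searched, on both strands, were the GC box GGGCGG, the CCAAT box spelled CCAAT, the cAMP response element TGACGTCA, its core TGACG and the TATA box spelled TATAAA. The core lies within the full response element, so those matches overlap. All 10 members matched the promoter table, with 11 windows because Pick1 had 2. The GC box was in a window of 9 of the 10 genes, all but Dpy19l2, and in 35.7% of all 32851 windows and 56.3% of the 15152 windows of tested genes. CCAAT was in 4 members (Golga3, Gopc, Pick1 and Spata16) and in 37.8% of the windows of tested genes. The Spata16 match, read as ATTGG, is not in capitals above. TGACG was in 3 members (Dpy19l2, Gopc and Pick1) and in 28.3% of those windows. The full response element and the TATA box were in none of the members' windows, against 2.80% and 7.91%. A match describes the letters of the window only.

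Depth was similar in the 7 libraries. The deposited values are counts scaled to a library total of 1000000 (CPM), and with the smallest step of a library taken as 1 read, the libraries held 32859673 to 37551057 reads in wild types and 32064384 to 34806129 in mutants. Iqch itself was at 193 to 217 CPM in wild types and 64.8 to 69.2 CPM in mutants, a log2 fold change of -1.63 ± 0.05 (SE, limma, FDR = 1.9e-10), so the labels and the targeted gene went the same way. Genes were called at an adjusted p (FDR) below 0.01 with limma on log2(CPM + 0.1), and p-values measure the spread between these mice. In this table the median gene was 0.12 higher in mutants on the log2 scale. Dividing the CPM by size factors, which set the median gene of the libraries equal, took Iqch to -1.76 and moved that median by 0.13 to -0.01. Each of the 10 genes is therefore given on the deposited CPM and on the size-factor scale.

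On the deposited CPM, Dpy19l2 and Spata16 fell in the mutants, Vps54 rose, and the other 7 members were not called. Of all tested genes, 14.2% were called lower and 36.3% higher, so 2 of 10 members lower and 1 of 10 higher stood against that background. Of the members, 9, all but Vps54, had a log2 fold change below 0, with a median of -0.11 over the 10 (a change of -7.31%). On the size-factor scale 7 members were called lower and 1 higher, against 25.1% and 27.0% of all genes, and the median was -0.24 (a change of -15.6%). Every mutant lay below every wild type in 5 members and above in 1 on the deposited CPM, where 19.5% and 42.8% of all genes did so. On the size-factor scale these counts were 9 and 1, against 31.6% and 32.7%. When single libraries were dropped, 1 (without mutant 4) to 3 members were called lower on the deposited CPM and 1, Vps54, was called higher. In whole tissue, fewer cells of a type and less RNA per cell cannot be told apart, and all 8 spermatid markers tested fell as well, with a median of -0.59.

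**Figure D1:**
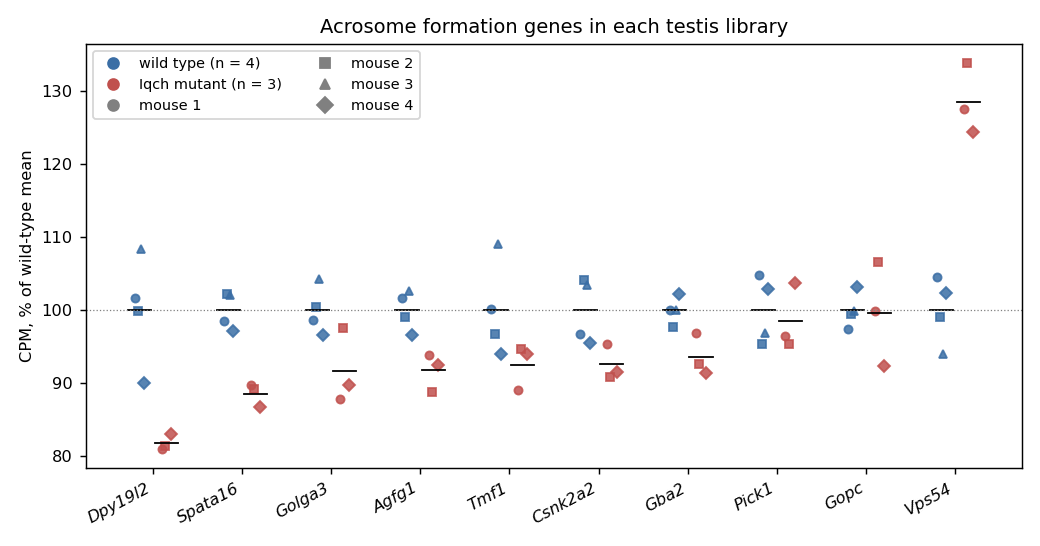
CPM of each of the 10 genes in each library, as a percent of that gene's wild-type mean (y axis), for 4 wild-type (blue) and 3 Iqch mutant (red) testes. Symbols give the mouse number and bars the group means. The mutant points of Dpy19l2 and Spata16 lie below all wild-type points, and those of Vps54 lie above them, with changes of -18.0%, -11.4% and 28.5% on the log scale of the test.

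The summed CPM of the 10 genes was 1539, 1537, 1606 and 1481 in wild types 1 to 4 and 1397, 1416 and 1395 in mutants 1, 2 and 4. The mutant sums lay below all wild-type sums. Among the wild types, mouse 4 was lowest in 6 members and mouse 3 highest in 4.

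Acrosome anchoring gave the largest fall among the members. Dpy19l2 (ENSMUSG00000085576, GRCm39 chr9:24468343-24607604, minus strand) encodes a protein of the inner nuclear membrane that holds the acrosome to the spermatid nucleus. It was at 206, 202, 219 and 182 CPM in wild types 1 to 4 and at 164, 165 and 168 CPM in mutants 1, 2 and 4. The 3 mutants sat close together below the lowest wild type. The means were 202 ± 15.4 (SD, n = 4) and 166 ± 2.18 CPM (SD, n = 3), and the log2 fold change was -0.29 ± 0.06 (SE, limma FDR = 6.2e-04), a change of -18.0%. On the size-factor scale it was -0.42 (FDR = 3.3e-05). The wild-type libraries had a coefficient of variation of 7.59%, above the 1.20% that read counting alone would give, and the mutants one of 1.32%, near the counting value of 1.35%.

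The Golgi proteins of the group included Spata16, Tmf1 and Golga3. Spata16 (ENSMUSG00000039335, chr3:26691769-27037361, plus strand) encodes a spermatid Golgi protein with tetratricopeptide repeats whose human mutations are known for round-headed sperm. Its level was 289, 299.8, 299.6 and 285 CPM in wild types 1 to 4 and 263, 262 and 254 CPM in mutants 1, 2 and 4. All 3 mutants lay below the lowest wild type, with means of 293 ± 7.48 (SD, n = 4) and 259.8 ± 4.74 CPM (SD, n = 3). The log2 fold change was -0.17 ± 0.04 (SE, limma FDR = 0.00144), a change of -11.4%, and -0.31 on the size-factor scale (FDR = 3.0e-05). Without mutant 4 the deposited-CPM value was -0.16 and no longer called (FDR = 0.0116).

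Tmf1 and Golga3 are golgins, long coiled-coil proteins that tether vesicles to Golgi membranes. Tmf1 (ENSMUSG00000030059, chr6:97128907-97156487, minus strand) was at 281, 271, 305 and 263 CPM in wild types and 249, 265 and 263 CPM in mutants. Wild type 3 stood high, and mutant 2 lay above wild type 4, so the groups overlapped. Its log2 fold change of -0.11 had a 95% interval of -0.22 to 0.00 (limma FDR = 0.0786), and on the size-factor scale it was called at -0.24 (FDR = 0.00109). Golga3 (ENSMUSG00000029502, chr5:110324420-110375671, plus strand) was at 225, 228, 237 and 219.9 CPM in wild types and 199.9, 222 and 204 CPM in mutants. Mutant 2 reached into the wild-type range and the other mutants lay below it. The log2 fold change was -0.13 (95% interval -0.23 to -0.03, limma FDR = 0.0312), it was called at -0.17 without mutant 2 (FDR = 0.00843), and it was called at -0.26 on the size-factor scale.

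Of the vesicle transport genes, Gopc and Pick1 were not called under either scaling. GOPC is a PDZ-domain protein of the trans-Golgi, and PICK1 is a PDZ- and BAR-domain protein that binds it and is needed for vesicles to reach the acrosome. Gopc (ENSMUSG00000019861, chr10:52211946-52258255, minus strand) was at 31.1, 31.7, 31.8 and 32.9 CPM in wild types and 31.8, 33.99 and 29.5 CPM in mutants. The mutants held both the highest and the lowest value. Its log2 fold change was -0.01 (95% interval -0.14 to 0.13, limma FDR = 0.924), against -0.14 on the size-factor scale (interval -0.27 to -0.01, FDR = 0.0559). Pick1 (ENSMUSG00000068206, chr15:79113345-79140874, plus strand) was at 39.7, 36.1, 36.7 and 39.0 CPM in wild types and 36.5, 36.1 and 39.3 CPM in mutants. The groups covered almost the same range. Its log2 fold change was -0.02 (interval -0.15 to 0.10, limma FDR = 0.77), and -0.16 on the size-factor scale (interval -0.28 to -0.03, FDR = 0.0315). Leaving out 1 library moved Gopc between -0.058 and 0.045 and Pick1 between -0.058 and 0.0019, so the direction of both on the deposited CPM depended on single libraries.

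Vps54 was the member that rose. VPS54 is a subunit of the GARP complex, which tethers vesicles returning from endosomes to the trans-Golgi, and it carries the wobbler mouse mutation, known for motor neuron loss and defective sperm heads. Vps54 (ENSMUSG00000020128, chr11:21188344-21271548, plus strand) was at 21.3, 20.2, 19.1 and 20.9 CPM in wild types and 26.0, 27.3 and 25.3 CPM in mutants. Every mutant lay above every wild type. The means were 20.4 ± 0.938 (SD, n = 4) and 26.2 ± 0.977 CPM (SD, n = 3), a log2 fold change of 0.36 ± 0.06 (SE, limma FDR = 3.2e-04) or 28.5% more, and 0.23 on the size-factor scale (FDR = 0.00723). It was the lowest of the members in reads, with 629 to 783 per wild-type library. Its exons share 950 of 9362 bp with Ugp2 on the opposite strand, which was at 30.4 to 33.4 CPM in wild types and 37.4 to 40.3 CPM in mutants (log2 fold change 0.32, limma FDR = 4.1e-04), and was not called on the size-factor scale (0.18, FDR = 0.0126). The strand setting of the counting is not given in the sources used here, so reads from that stretch cannot be told apart.

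The other GARP subunits and the related EARP subunit Vps50 were not called on the deposited CPM. Vps51 was at 0.12, Vps52 at 0.13 and Vps53 at 0.10 on the log2 scale (limma FDR = 0.0856, 0.0242 and 0.166), each near the median of all genes, and at -0.01, -0.0019 and -0.03 on the size-factor scale. Vps50 was at -0.21 (FDR = 0.0346) and was called lower at -0.35 on the size-factor scale. Within a library, the CPM ratio of Vps54 to Vps51 was 0.650 to 0.718 in wild types and 0.738 to 0.842 in mutants. The ratio to Vps52 was 0.304 to 0.336 and 0.363 to 0.397, and that to Vps53 was 0.554 to 0.669 and 0.725 to 0.739. These ratios were chosen after the values were seen and carry no test. In each the mutants lay above the wild types, but all share Vps54 as numerator and are not separate observations. Vps54 itself was above in every mutant, as were 42.8% of all genes on the deposited CPM. No such share was computed for ratios of other genes.

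Agfg1, the member for vesicle fusion, was lower in every mutant but not called on the deposited CPM. AGFG1 is an ArfGAP-domain protein on the surface of proacrosomal vesicles. Agfg1 (ENSMUSG00000026159, chr1:82816740-82878903, plus strand) was at 209, 204, 211 and 199 CPM in wild types and 193, 183 and 190.5 CPM in mutants. Its log2 fold change was -0.12 (95% interval -0.21 to -0.04, limma FDR = 0.0173), and -0.26 on the size-factor scale, where it was called (FDR = 2.4e-04). Without wild type 4 it was -0.14 and called on the deposited CPM too (FDR = 0.00995).

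Csnk2a2 and Gba2 encode enzymes. CSNK2A2 is the alpha-prime catalytic subunit of casein kinase 2, and GBA2 is a glucosylceramidase outside the lysosome whose loss lets glucosylceramide build up in the testis. Csnk2a2 (ENSMUSG00000046707, chr8:96172451-96216667, minus strand) was at 121, 131, 129.7 and 119.7 CPM in wild types and 119.6, 114 and 115 CPM in mutants, with mutant 1 just under wild type 4. Its log2 fold change of -0.11 (interval -0.21 to -0.01) was not called (limma FDR = 0.0566). Gba2 (ENSMUSG00000028467, chr4:43564519-43578922, minus strand) was at 116, 114, 116 and 119 CPM in wild types and 113, 108 and 106 CPM in mutants, with mutant 1 just under wild type 2. Its log2 fold change of -0.09 (interval -0.19 to 0.00) was not called (limma FDR = 0.0643). On the size-factor scale both were called, Csnk2a2 at -0.24 (FDR = 7.7e-04) and Gba2 at -0.23 (FDR = 6.8e-04). Gba2 shares 1693 of its 7280 exonic bp with Creb3 on the opposite strand, and Creb3 was higher in mutants by 0.77 on the log2 scale (limma FDR = 8.8e-07), and by 0.64 on the size-factor scale. The part of shared reads in the Gba2 value was not tested.

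**Figure D2:**
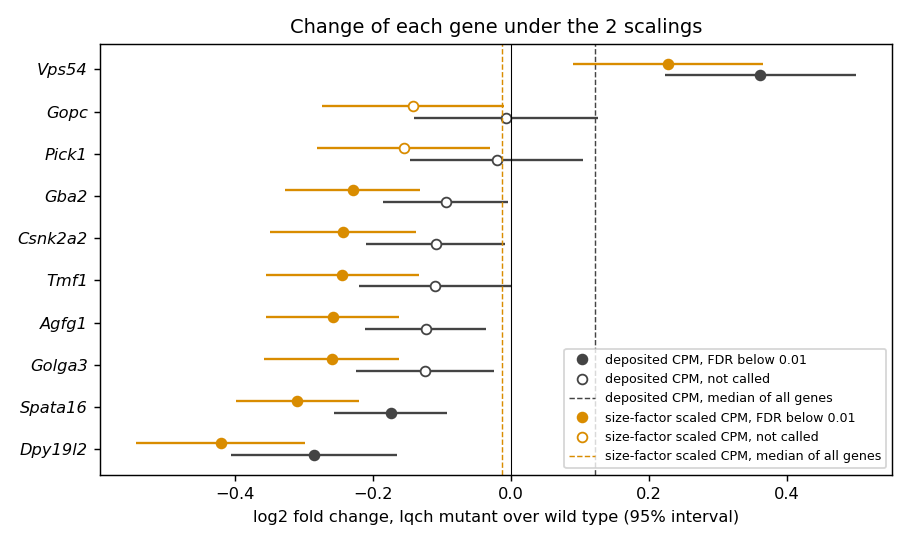
Log2 fold change of each gene, Iqch mutant over wild type, with its 95% interval (x axis), on the deposited CPM (grey) and on size-factor scaled CPM (orange). Filled points were called at an FDR below 0.01 and dashed lines are the medians of all tested genes, 0.12 and -0.01. Vps54 lies right of both medians, and the other 9 genes lie left of the median of their own scale.

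Per kilobase of exon, the members spanned a wide range of levels. In wild types, Spata16 was highest at 101 ± 2.58 CPM per kb (SD, n = 4), followed by Dpy19l2 at 54.9 ± 4.16, Tmf1 at 30.0 ± 1.96 and Agfg1 at 22.2 ± 0.599 CPM per kb. Gba2 at 16.0 ± 0.296 and Golga3 at 15.7 ± 0.504 CPM per kb overlapped between mice and could not be ordered. Csnk2a2 was at 12.7, Pick1 at 4.59, Gopc at 2.69 and Vps54 at 2.18 CPM per kb. Pick1 shares 1860 of its 8256 exonic bp with Gm49486 on the same strand, and Gm49486 has no values here. In mutants the order differed only at the low end, where Vps54 at 2.80 and Gopc at 2.68 CPM per kb overlapped. On the deposited CPM, the 2 members called lower were thus those with the highest level per length. The member called higher had the lowest level in wild types. On the size-factor scale, the 7 members called lower were all those from Spata16 down to Csnk2a2 in this order. The relation of level to direction was not tested.

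Csnk2a2, Agfg1 and Dpy19l2 were also compared with a close relative inside each library, which does not depend on the scaling. In 3 of 3 pairs every mutant ratio lay below every wild-type ratio. Among single genes on the deposited CPM, every mutant lay below every wild type in 19.5% and above in 42.8%. Such a share was not computed for ratios of other genes. Csnk2a2 over Csnk2a1, the other catalytic subunit, was 11.8, 12.0, 10.8 and 10.8 in wild types and 6.96, 5.26 and 5.496 in mutants, a log2 difference of -0.94. Agfg1 over Agfg2 was 11.6, 11.0, 9.78 and 9.68 against 5.28, 4.38 and 4.55, a difference of -1.15. The mutant ratios of these 2 pairs were 0.520 and 0.452 of the wild-type ratios. Dpy19l2 over Dpy19l1 differed less, at 2.09, 2.22, 2.30 and 2.11 against 1.72, 1.69 and 1.67, a log2 difference of -0.36. In each pair the two-sided exact permutation p was 0.0286 and stayed 0.0286 after Benjamini-Hochberg adjustment over the 3 pairs, the smallest value that 3 against 4 mice allow.

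**Figure D3:**
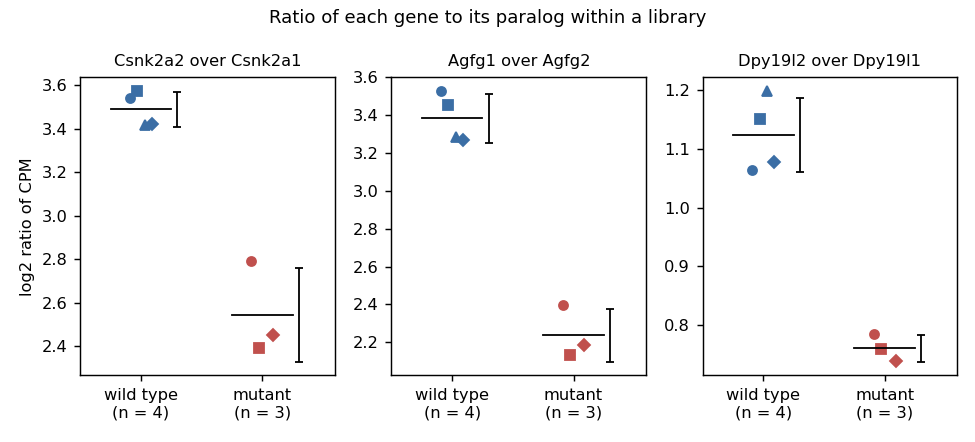
Log2 ratio of the CPM of a gene to that of its paralog in each library (y axis, a separate range in each panel), for 4 wild-type (blue) and 3 Iqch mutant (red) testes. Symbols give the mouse number, horizontal bars the group means and error bars the SD. In all 3 panels the mutant points lie below the wild-type points, with differences of -0.94, -1.15 and -0.36 from left to right.

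In the pairs of Csnk2a2 and Agfg1, the paralog's own difference was larger than the member's. Agfg2 rose from 18.0 to 21.6 CPM in wild types to 36.7 to 41.8 CPM in mutants, by 1.02 on the log2 scale (limma FDR = 2.5e-07) and 0.89 with size factors. Csnk2a1 rose from 10.3 to 12.1 CPM to 17.2 to 21.6 CPM, by 0.83 (FDR = 6.9e-06) and 0.70 with size factors. Dpy19l3 and Dpy19l4 rose by 0.59 and 0.41, while Dpy19l1 was at 0.08 on the deposited CPM and -0.06 on the size-factor scale and was not called (FDR = 0.217 and 0.342). Csnk2b, the regulatory subunit shared by both catalytic subunits, fell by 0.28 (limma FDR = 7.2e-05) and by 0.41 with size factors. It was at 643 to 698 CPM in wild types and 539.9 to 577 CPM in mutants. Csnk2b shares 317 of its 3182 exonic bp with Gpank1 on the opposite strand, and the part of shared reads in its value was not tested. Of these 6 relatives and partners, 4 were called higher and 1 lower under both scalings. Of all genes, 36.3% were called higher and 14.2% lower on the deposited CPM, and 27.0% and 25.1% on the size-factor scale. Markers of Sertoli cells, Leydig cells and macrophages were higher in the mutants too, by medians of 0.83, 1.25 and 1.55 on the log2 scale, and their part in these ratios was not tested.

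Further genes of acrosome formation, on a list of 13, were called lower in 7 cases and higher in 1, with a median log2 fold change of -0.18, where 14.2% of all genes were called lower and 36.3% higher. Those that fell were Actl7a (-0.36) and Actl9 (-0.26), actin-like proteins of the sperm head, Pdcl2 (-0.28), a phosducin-like protein, Spink2 (-0.27), a protease inhibitor of the acrosome, Tbc1d20 (-0.24), a Rab GTPase-activating protein, and Zpbp2 (-0.24) and Zpbp (-0.18), acrosomal zona pellucida binding proteins. Smap2, an Arf GTPase-activating protein of the trans-Golgi, was called higher at 0.31 on the deposited CPM but not on the size-factor scale (FDR = 0.0244). The values not called were -0.15 for Spaca1, -0.09 for Mfsd14a, -0.09 for Fam209, -0.07 for Atg7 and 0.01 for Vps13b. On the size-factor scale 10 of the 13 were called lower, with a median of -0.32, where 25.1% of all genes were.

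The lists of general Golgi genes are read against the median of all genes, 0.12 on the deposited CPM and -0.01 on the size-factor scale, and against 36.3% and 27.0% of all genes called higher. Of 9 COPI coat genes, which form vesicles moving back through the Golgi, 7 were called higher, with a median of 0.24, and 3 on the size-factor scale, with a median of 0.11. Copz2, a coat subunit, rose by 1.87 on the log2 scale, from 3.17 to 4.38 CPM in wild types to 12.6 to 14.7 CPM in mutants, and Copa and Copb2 rose by 0.36 and 0.35. Of 11 Golgi SNAREs tested, the proteins that drive membrane fusion, 6 were called higher (median 0.24, Vti1a at 0.45). Of 11 Golgi Rab and Arf GTPases 4 were called higher (median 0.22, Arf5 at 0.51). On the size-factor scale 1 SNARE and 3 GTPases were called higher (medians 0.10 and 0.09) and 1 SNARE, Vamp4 at -0.28, lower. Markers of Sertoli cells, Leydig cells and macrophages were higher in the mutants too, and their part in these rises was not tested.

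The golgins were split by scaling. Of 11 other golgins and GRASPs (median 0.09, and -0.04 on the size-factor scale), 3 were called higher on the deposited CPM, Golgb1 (0.31), Golga2 (0.28) and Gcc2 (0.25), and none of these was called on the size-factor scale, where 3 others were called lower. Of 8 COG subunits, which tether vesicles within the Golgi, Cog2 (0.48) and Cog3 (0.37) were called higher under both scalings, and 4 others were called lower on the size-factor scale only. Over all 8 lists of relatives and Golgi or acrosome genes, 27 of 73 genes were called higher and 8 lower, and on the size-factor scale 13 and 20. Over all genes tested, 36.3% were called higher and 14.2% lower on the deposited CPM, and 27.0% and 25.1% on the size-factor scale (50.4% and 52.1% in either direction).

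**Figure D4:**
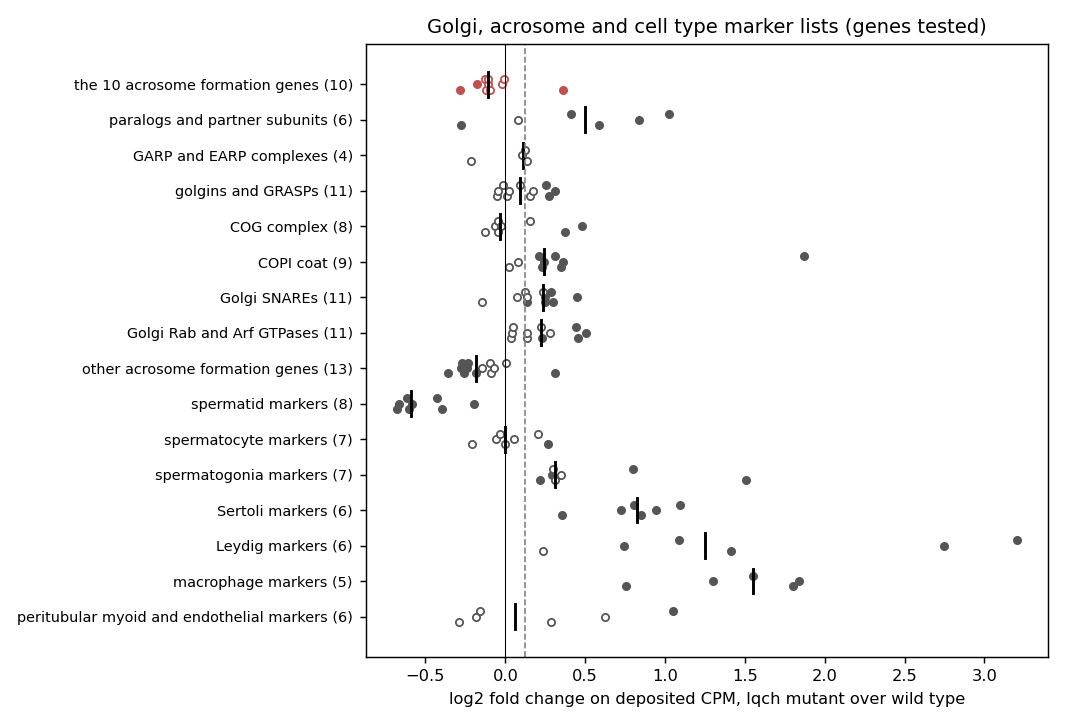
Log2 fold change on the deposited CPM, Iqch mutant over wild type (x axis), of each gene in the 10-gene group (red), in the related lists and in the cell type marker lists (grey), with the number of genes tested in brackets. Filled points were called at an FDR below 0.01, vertical bars are list medians and the dashed line is the median of all genes, 0.12. The median of the 10 genes (-0.11) lies between that of the spermatid markers (-0.59) and those of the somatic lists, which reach 1.55. Single genes of these lists overlap.

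Markers of the cell types in the testis differed with the genotype too. They are read against all genes, of which 36.3% were called higher and 14.2% lower on the deposited CPM. On the size-factor scale these shares were 27.0% and 25.1%. All 8 spermatid markers were called lower under both scalings, with a summed level of 21694 to 22965 CPM in wild types and 13818 to 15891 CPM in mutants. Of 7 spermatocyte markers only Spo11 was called (higher, and not on the size-factor scale, where 2 markers were called lower), and the sum was 1142 to 1208 CPM in wild types and 1086 to 1198 CPM in mutants. Of 7 spermatogonia markers 4 were called higher, and 1, Kit, on the size-factor scale (a sum of 112 to 124 CPM in wild types and 166 to 193 CPM in mutants). Within that sum, Kit alone was at 18.4 to 23.7 CPM in wild types and 50.7 to 72.7 CPM in mutants. All 6 Sertoli markers tested were called higher, and 5 on the size-factor scale (1156 to 1254 and 2391 to 2511 CPM). Under both scalings, 5 of 6 Leydig markers (997 to 1202 and 4214 to 4393 CPM) were called higher, as were 5 of 5 macrophage markers (47.3 to 53.5 and 101 to 122 CPM). Of 6 peritubular myoid and endothelial markers only Cdh5 was called higher (72.6 to 97.4 and 85.8 to 111 CPM). No tested marker was at 0 in any library, so the tested markers of germ and somatic cells were present in all of them. The deposited genes had passed a minimum on reads in either group, so a marker absent from both groups could not be seen. The Sertoli marker Fshr was not among those tested. The part of these cell types in the values of the 10 genes, of the paralogs and of the other listed genes was not tested.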

How the data were processed

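TruSeq libraries were sequenced as paired ends. Trimming by the authors was with Trimmomatic, mapping with Subread to GRCm39 and counting with featureCounts, followed by a minimum on reads in either group. Handling of multi-mapping reads, strand and the annotation release are not given in the sources used here. They deposited CPM values, which sum to 1000000 per library and are whole multiples of 1 step, and counting error and depth rest on taking 1 step as 1 read. Mutant 3 is not analysed here, and the study excluded 1 mutant library it judged an outlier.

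Gene symbols, positions and exon lengths came from GENCODE M39, in which 17045 of the 17127 identifiers were found. Under R 4.3.3, limma 3.58.1 (lmFit, then eBayes with a mean trend) was run on log2(CPM + 0.1) for genes with at least 2.2 CPM in 2 samples of a group, with no covariate, and p-values were adjusted by Benjamini-Hochberg over 17126 genes. Fold changes are on that scale and understate the change of low genes. Paralog ratios were tested by exact permutation over 35 splits. Size factors were medians of ratios to the geometric mean library. On simulated libraries for this comparison, the fit called 100 of 100 genes changed 2-fold and 97 of 99 changed 1.5-fold. Among 16922 genes tested, 3 unchanged genes were called. Only 200 genes were changed, in equal numbers up and down, with a fixed spread. The simulation does not cover changes as small as those of the members, or a shift of the median gene.

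The 10 genes and all lists were chosen with earlier results of these data known. The text names all 10, the paralogs, Iqch, every gene of the acrosome formation list, and some of the up to 3 called genes with the largest change per direction in each other list, all 39 of which went through the alternatives. The motifs, the printed promoters, the ratios within GARP, Vamp4 and the genes with overlapping exons were chosen after values were seen. Vamp7 and Fshr are not analysed here, and 1 further planned ratio is not reported here. Alternatives covered the pseudocount, the minimum, the scaling, a replicate block, each library left out and, for levels, transcript length. Python 3.11.15 was used for the ratios and figures.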

Additional observations from a re-analysis of the deposited data

Results flagged for a closer look

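Actl7a, on the list of further acrosome formation genes, was the 1 result of 54 tested in which a wild-type mouse stood far from the others, and chance alone flags about 1 in 20. Its wild-type values were 389, 388, 347 and 389 CPM, so that the gap of wild type 3 to its nearest neighbour was 0.982 of the whole range, above the 95% critical value of Dixon's test for 4 samples. All 3 mutants, at 275 to 314 CPM, lay below wild type 3. None of the 10 members and none of the 3 paralog ratios had such a mouse. Groups of 3 mutants were not tested in this way.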

How the results depend on the processing

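Scaling moved more calls among the members than any other choice tried. With size factors Agfg1 (-0.26), Csnk2a2 (-0.24), Gba2 (-0.23), Tmf1 (-0.24) and Golga3 (-0.26) became called, which took the members called lower from 2 to 7, all genes called lower from 2428 to 4294, and the related lists from 8 to 20 lower and from 27 to 13 higher. By construction the size factors raise the wild-type and lower the mutant values. Of 39 list genes picked by the naming rule, 9 lost their call (Golgb1, Golga2, Gcc2, Stx16, Ykt6, Smap2, Spo11, Zbtb16 and Uchl1). Dpy19l2, Spata16 and Vps54 kept theirs under both scalings, both other pseudocounts and both other minimums.

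Leaving out 1 library gave Gopc -0.058 to 0.045, Pick1 -0.058 to 0.0019, Agfg1 -0.14 to -0.10, Spata16 -0.19 to -0.16 and Golga3 -0.17 to -0.10. Gopc turned positive without wild type 4 (0.0079) or mutant 4 (0.045), and Pick1 without wild type 1 (0.0019) or mutant 2 (0.0016). Dpy19l2 (-0.34 to -0.25) and Vps54 (0.33 to 0.38) stayed called. Members called lower numbered 1 (without mutant 4) to 3. The paralog ratios ranged from -1.07 to -0.87 (Csnk2a2), -1.23 to -1.09 (Agfg1) and -0.38 to -0.34 (Dpy19l2), where 6 libraries allow no p below 0.0667 or 0.1. Spata16 was lost without mutant 4, and Agfg1 and Golga3 were gained without wild type 4 and without mutant 2. Of the 39 list genes, Gcc2, Spo11, Uchl1 and Zbtb16 lost their call without some library.

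With the replicate number as a block, Dpy19l2 was at -0.25, Spata16 at -0.16 and Vps54 at 0.33, and the same 3 members were called (limma FDR = 0.0028, 0.0075 and 0.0038). The deviations of same-numbered libraries correlated at 0.026, 0.0094 and -0.098, which gave no sign that the numbers pair the samples. Of the 39 list genes only Uchl1 lost its call with the block.

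Per kilobase of the longest coding transcript, wild-type levels were 145 for Spata16, 58.5 for Dpy19l2, 48.1 for Tmf1, 23.9 for Agfg1 and 23.2 CPM per kb for Golga3. Gba2 was at 19.4, Csnk2a2 at 18.2, Pick1 at 18.1, Gopc at 7.33 and Vps54 at 3.89 CPM per kb. This length puts Golga3 above Gba2. By it, Csnk2a2 and Pick1 overlapped between mice, as did Agfg1 and Golga3, and Gba2 and Csnk2a2. Count tests with edgeR or DESeq2 were not run, because the filtered table holds too few low values to check that the steps of the CPM are single reads.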
